A study of Mus musculus with 2 samples.

Results

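Microexons are very short exons, and those described here are the internal exons of 21 to 30 bases in the annotated transcripts of the deposited mouse annotation. An exon was taken when it was neither the first nor the last of its transcript and its gene had at least 20 long reads summed over both libraries. That rule gave 638 microexons in 543 genes, out of 80166 annotated internal exons in 6970 genes chosen by the same minimum. The gene read number therefore chose the exons, and inclusion did not. Just above the minimum, at 20 gene reads, stood 1 microexon of Acaca and 2 of Auts2, and just below it, at 19 reads, stood those of Adgrl2, Cask and Cep89.

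A microexon is so short that the splicing machinery has little room to recognise both of its ends at once, and many depend on helper proteins that bind in the flanking introns. In neurons, SRRM4 (nSR100) drives the inclusion of a large set of them, while RBFOX, MBNL, QK and PTBP proteins act on short exons in muscle as well. When the length is a multiple of the codon length, a microexon adds or removes a few amino acids, often on a protein surface, and leaves the reading frame as it was. Others belong to the fixed core of a gene and are spliced into all of its messages.

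The samples were 2 long-read RNA sequencing libraries of gastrocnemius, a calf muscle made mostly of fast fibres. Both came from female B6CASTF1/J mice, first-generation hybrids of a laboratory and a wild-derived strain, at 2 months of age, with 2 µg of starting RNA each and no treatment named. Replicate 1 was animal 3 and replicate 2 was animal 4, yet the donor identifier in the labels is the same for both, so differences between the libraries may be technical. They form 1 group, and each comparison below sets 1 library against the other or exons against exons.

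The libraries held 1349298 reads in replicate 1 and 1359923 in replicate 2. All 8 skeletal muscle markers were present in both. The 8 slow fibre markers summed to 1827 reads in replicate 1 and 12510 in replicate 2. The adipocyte markers went from 1608 to 189 reads and those of nerve and Schwann cells from 923 to 134. Smooth muscle markers went from 298 to 121 reads. In the gene test described below, 4 of these 5 were called lower in replicate 2, as were 333 of all 9341 genes tested. Of the neuron markers, 3 of 5 were at 0 reads in both libraries. In bulk tissue, fewer cells of a type and less RNA per cell cannot be told apart. The part of these cell types in the inclusion values was not tested.

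For each microexon, reads whose transcript model held the exact exon were counted as included, and reads whose model ran past it on both sides without touching it were counted as skipping. Together they are the informative reads, and inclusion is the included share of them. A microexon was called measured with at least 20 informative reads in each library. That left 304 microexons in 259 genes, 47.6% of the 638. Of the other 334, 85 had no informative read, 70 reached 20 in 1 library only and 179 had some reads but stayed under 20 in both. Measured microexons lay in genes with more reads, with a median of 146 gene reads against 43.5 for the rest, so the values below describe the better-sequenced genes.

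Sequences of the exons on which the results turn are given first, read 5′ to 3′ from the GENCODE M21 transcripts (build mm10), with the microexon in capitals and the adjoining bases of the neighbouring exons in lower case. The first set shows a 28-base exon at the same place in 5 myosin heavy chain genes, where it codes for part of the motor domain just ahead of the ATP-binding loop.
Myh4, chr11:67242141-67242168, plus strand: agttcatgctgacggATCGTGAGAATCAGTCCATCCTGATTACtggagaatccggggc
Myh1, chr11:67203576-67203603, plus strand: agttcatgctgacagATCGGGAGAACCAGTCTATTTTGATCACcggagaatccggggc
Myh2, chr11:67176144-67176171, plus strand: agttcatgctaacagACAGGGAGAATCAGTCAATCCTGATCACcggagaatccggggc
Myh7, chr14:54991716-54991743, minus strand: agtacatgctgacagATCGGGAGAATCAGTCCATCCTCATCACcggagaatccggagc
Myh11, chr16:14256485-14256512, minus strand: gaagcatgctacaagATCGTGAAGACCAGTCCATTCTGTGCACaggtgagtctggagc

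The second set holds microexons of regulatory and triadic proteins with partial inclusion or none, beside their nearest constitutive counterparts in Ppp3cb and Trdn. Mef2a, Mef2d and Mef2c are muscle transcription factors with a short alternative exon, Ppp3ca and Ppp3cb are catalytic subunits of calcineurin, Tmed2 is a cargo receptor between the endoplasmic reticulum and the Golgi, and Trdn is triadin, an anchor of the calcium release complex.
Mef2a, chr7:67244521-67244544, minus strand: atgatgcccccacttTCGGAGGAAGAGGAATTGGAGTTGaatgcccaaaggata
Mef2d, chr3:88161781-88161801, plus strand: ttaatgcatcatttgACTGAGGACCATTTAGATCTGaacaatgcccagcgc
Mef2c, chr13:83654598-83654621, plus strand: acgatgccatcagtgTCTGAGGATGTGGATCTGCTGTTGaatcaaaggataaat
Ppp3ca, chr3:136932011-136932040, plus strand: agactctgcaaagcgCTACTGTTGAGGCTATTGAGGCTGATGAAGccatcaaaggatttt
Ppp3cb, chr14:20503247-20503276, minus strand: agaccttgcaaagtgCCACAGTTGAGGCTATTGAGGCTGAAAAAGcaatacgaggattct
Tmed2, chr5:124543487-124543507, plus strand: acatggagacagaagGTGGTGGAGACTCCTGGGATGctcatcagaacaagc
Trdn, partly included, chr10:33433701-33433730, plus strand: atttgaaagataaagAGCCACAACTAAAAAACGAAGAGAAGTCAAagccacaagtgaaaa
Trdn, the next microexon, chr10:33437718-33437747, plus strand: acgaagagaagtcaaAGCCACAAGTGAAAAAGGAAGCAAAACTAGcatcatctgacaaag

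Most measured microexons were spliced into nearly all reads. Of the 304, 178 were constitutive (pooled inclusion of 95% or more), 70 were alternative (5% to under 95%) and 56 were skipped (under 5%). The median pooled inclusion was 98.1%, with quartiles of 43.8% and 100%. Inclusion was 100% for 81 microexons and 0% for 37. Across these 304 exons the libraries gave nearly the same values (Pearson's r = 0.994 across exons, which share genes and libraries and are no replicates).

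**Figure D1:**
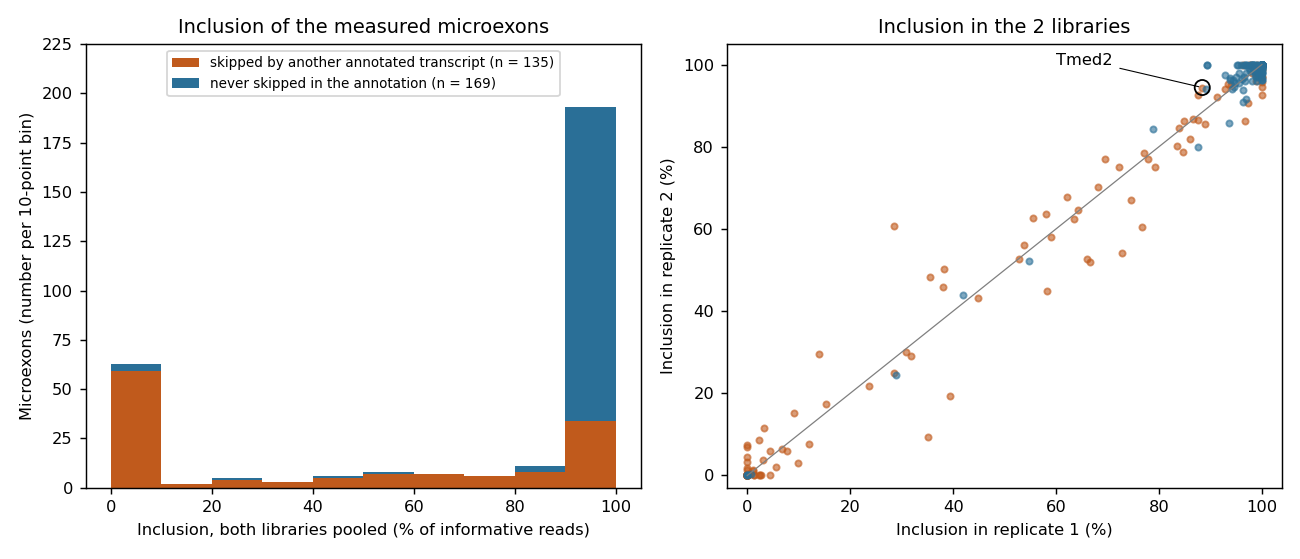
Left, number of the 304 measured microexons in each 10-point bin of pooled inclusion (%), stacked by whether another annotated transcript skips the exon; right, inclusion (%) in replicate 2 against replicate 1, 1 point per microexon in the same colours, with the line of equal values. Most exons stand at either end of the scale, and the points follow the line; the circled exon of Tmed2 is the 1 that differed in the test between the libraries.

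The annotation itself already separated the 2 ends. For 135 of the measured microexons another annotated transcript runs past the exon on both sides without touching it. These had a median inclusion of 30.6%, with 26 constitutive, 57 alternative and 52 skipped. The 169 that no annotated transcript skips had a median of 99.6%, with 152 constitutive, 13 alternative and 4 skipped. Among the 15 microexons held by no protein-coding transcript, 13 were skipped, 2 were alternative and 0 were constitutive. Of the alternative microexons, 56 of 70 (80%) had a length divisible by 3, against 93 of 178 constitutive ones (52.2%) and 39 of 56 skipped ones (69.6%); these shares are descriptions without a test.

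The fast and slow myosin heavy chains shared one of the best-measured constitutive microexons. The 28-base exon printed above was held by 7349 of 7394 informative reads of Myh4 in replicate 1 and by 9508 of 9548 in replicate 2. In Myh1, the gene of type IIX myosin, inclusion was 99.3% and 99.4%. For Myh2, the type IIA gene, it was 99.4% and 99.5%. Myh7, the slow chain, had 348 informative reads in replicate 1 and 3828 in replicate 2, and inclusion was 99.7% and 99.9%, while the gene itself had 422 and 4414 reads. In Myh14 all 85 reads held it and in Myh11, the smooth muscle chain, 44 of 45 did. Myh9, Myh6, Myh3 and Myh10 fell under the read minimum, and their 36, 22, 17 and 15 informative reads all held the exon. Between any 2 of these 10 genes, 18 to 28 of the 28 bases were the same, the highest being Myh6 and Myh7, whose exons were identical. Reads of such close copies were taken as the authors assigned them.

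Other contractile and M-band genes carried constitutive microexons of comparable firmness. A 30-base exon of Mybpc2, fast myosin-binding protein C, was in 99.9% of reads in each library, with 5378 and 5097 informative reads. Tnni2, fast troponin I, held a 30-base exon in 99.9% of its informative reads in both libraries, and a further 816 and 725 reads overlapped this exon with other ends and were left out. Myom2, the M-protein of the M-band, had a 23-base exon in 99.8% and 99.4% of reads. The 25-base exon of Selenow, a small selenoprotein, was in 99.6% and 99.4%.

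The essential light chain gene Myl1 gave the deepest view of an alternative pair. It makes the fast light chains MLC1f and MLC3f from an upstream and a downstream promoter. The 2 microexons lie next to each other on the minus strand, the 25-base one at chr1:66934518-66934542 and the 28-base one at chr1:66934246-66934273.
Myl1, 25 bases: tccttcagtgctgaccagattgccg
Myl1, 28 bases: atcgagttctctaaggagcaacaggagg
The 25-base exon was in 77.1% of 7813 informative reads in replicate 1 and in 78.6% of 6851 in replicate 2. The 28-base exon was in 23.6% of 8101 reads and in 21.8% of 7091. Neither difference between the libraries passed the test (two-sided Fisher's exact test with Benjamini-Hochberg adjustment over 1543 internal exons, adjusted p = 0.521 and 0.385). 

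On the reads that spanned both positions, the 2 microexons of Myl1 nearly excluded each other, and the choice went with the first exon. In replicate 1, 5788 reads held the 25-base exon alone, 1681 the 28-base exon alone, 231 both and 109 neither. In replicate 2 the numbers were 5182, 1345, 199 and 122. Of the reads that began at the upstream first exons, 1667 of 1669 in replicate 1 and 1339 of 1339 in replicate 2 held only the 28-base exon. Of those that began at the downstream first exon, 94.6% of 6092 and 94.3% of 5474 held only the 25-base exon, and 3.68% and 3.58% held both. Myl3 and Myl6, slow and non-sarcomeric light chains, hold a 28-base exon as well, and there it was constitutive at 99.9% and 100% pooled.

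**Figure D2:**
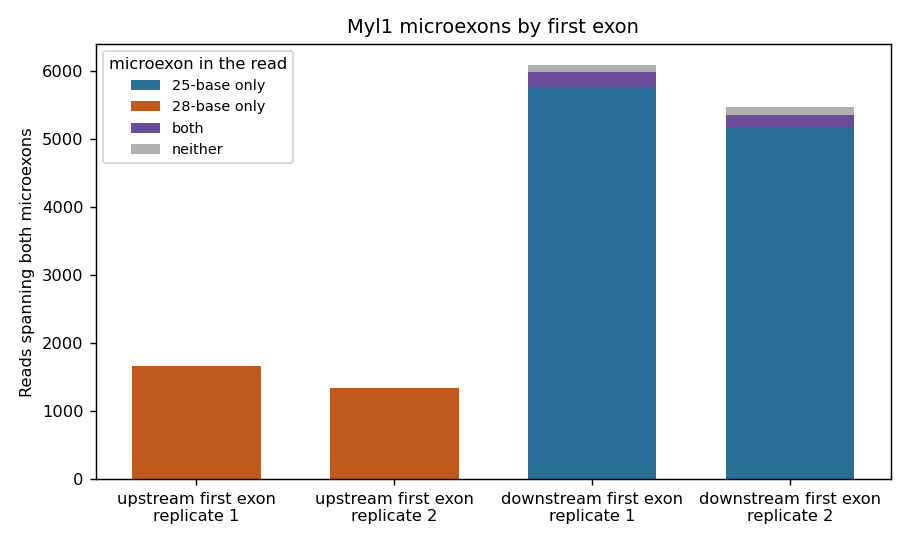
Number of Myl1 reads that span both microexon positions, by the first exon of the read and library; colours give which microexon the read holds. Upstream-started reads held the 28-base exon alone in 1667 of 1669 and 1339 of 1339, and downstream-started reads held mostly the 25-base exon.

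Triadin, which ties the ryanodine receptor to calsequestrin at the junctional sarcoplasmic reticulum, had 10 measured microexons of 21 to 30 bases along 1 transcript. All their informative reads came from models that are not complete annotated transcripts, which had 0 included and 0 skipping reads in both libraries. Of the 10 exons, 8 were constitutive, with pooled inclusion from 96.4% to 99.8%. One 30-base exon, number 24 of 38 in its reference transcript, was held by 41 of 98 reads in replicate 1 (41.8%) and by 128 of 291 in replicate 2 (44.0%). The adjacent 30-base exon, number 25, was in 94 of 99 and 281 of 290 reads. No annotated transcript skips exon 24, yet 219 of its 220 skipping reads joined annotated splice sites on both sides. The 24-base exon near the 3′ end was in 93 of 96 and 249 of 272 reads, 96.9% and 91.5%, a difference that did not pass the test (adjusted p = 0.818). A further 5 and 21 reads held an unannotated 21-base form with the same 3′ end and were left out of these counts. Reads that spanned exon 24 and this 24-base exon held both in 34 and 114 cases, only exon 24 in 1 and 4, only the 24-base exon in 54 and 132, and neither in 2 and 19. The Trdn gene had 704 reads in replicate 1 and 1201 in replicate 2.

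**Figure D3:**
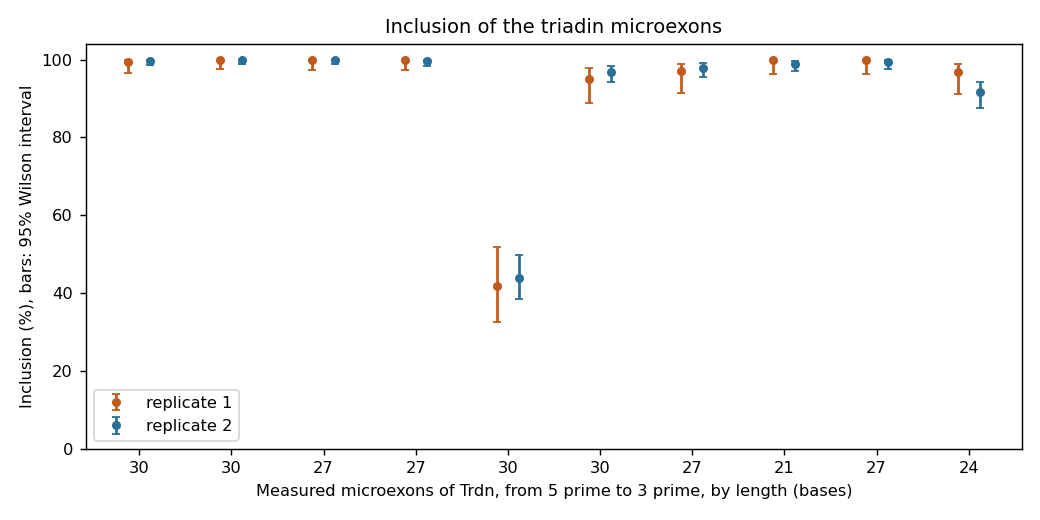
Inclusion (%) of the 10 measured triadin microexons in transcript order, labelled by length, for each library with 95% Wilson intervals. The fifth stands at 41.8% and 44.0%, and the others lie between 91.5% and 100%.

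The transcription factors of the Mef2 family had unlike values for the short acidic exon that lies in their activation region. Mef2a held its 24-base exon in 49 of 56 reads in replicate 1 and in 116 of 134 in replicate 2, which is 87.5% and 86.6%. Mef2d held a 21-base exon in 138 of 155 and 143 of 167 reads, 89.0% and 85.6%; of the 41 reads without it, 26 had a longer neighbouring exon in its place. Mef2c held its 24-base exon in 0 of 191 and 0 of 269 reads, which allows an inclusion of up to 0.652% over both libraries (3 counts of the total; such limits and intervals cover counting error only). All 460 skipping reads of Mef2c used annotated splice sites. Counting annotated transcripts alone, pooled inclusion moved from 86.8% to 73.6% for Mef2a and from 87.3% to 71.4% for Mef2d. Mef2d then had only 9 included and 3 skipping reads in replicate 1, and 6 and 3 in replicate 2. With annotated splice sites required on both sides, pooled inclusion was 94.9% for Mef2d and 87.3% for Mef2a. The Mef2a and Mef2c exons share 17 of 24 bases.

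Signalling genes held several of the alternative microexons with the most reads. Ppp3ca, calcineurin A alpha, included its 30-base exon in 369 of 404 reads and 362 of 393, 91.3% and 92.1%, whereas the matching exon of Ppp3cb was in all 65 and all 91 reads. These 2 exons are the same in 26 of 30 bases. Mapk12, the muscle p38 gamma kinase, included a 30-base exon in 86.0% of 221 reads and 81.9% of 160, and the corresponding exon of Mapk14, p38 alpha, was in all 290 reads of both libraries. Fbxo40, a muscle F-box protein that targets IRS1, included its exon in 89.2% of 213 and 94.1% of 205 reads. Rilpl1, a Rab effector, stood at 77.8% and 77.0%. Dctn1, the large subunit of dynactin, had a 21-base exon at chr6:83187764-83187784 in 62.2% of 386 and 67.8% of 482 reads. Its neighbour at chr6:83183936-83183956, also 21 bases, was in 1 of 385 and 2 of 481 reads. The included reads of Rilpl1 and of both Dctn1 exons all came from models that are not complete annotated transcripts: in complete ones Rilpl1 had 0 included and 8 and 13 skipping reads, and Dctn1 0 and 117 and 127. None of these passed the test between the libraries (adjusted p from 0.796 to 1 over Ppp3ca, Mapk12, Fbxo40, Rilpl1 and the first Dctn1 exon).

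**Figure D4:**
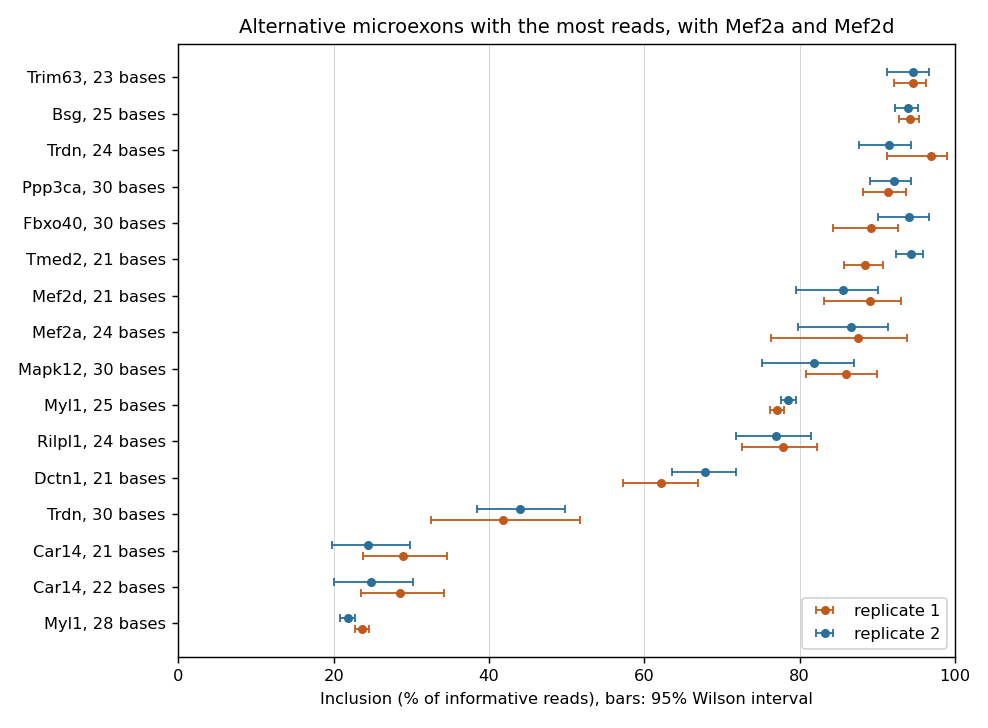
Inclusion (%) of the 14 alternative microexons with the most informative reads, with Mef2a and Mef2d, in replicate 1 and replicate 2 with 95% Wilson intervals. Intervals of the libraries overlap for each exon shown except the 21-base exon of Tmed2.

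Tmed2 held the microexon that differed between the libraries. Its 21-base exon was in 557 of 630 reads in replicate 1 and in 641 of 679 in replicate 2, 88.4% (95% Wilson interval 85.7% to 90.7%) against 94.4% (92.4% to 95.9%). The difference passed the two-sided Fisher's exact test with Benjamini-Hochberg adjustment over 1543 internal exons of any length with intermediate inclusion (adjusted p = 0.0259). In that comparison 0.389% of exons were called, 6 in all, and 1 of the 70 tested microexons. At an unadjusted p under 0.05 there were 7 of 70 microexons and 119 of 1543 exons. The call was lost when all measured internal exons were adjusted together (adjusted p = 0.405). It was also lost when a correlation of 0.01 between the reads of a library was assumed (adjusted p = 1). The call therefore hangs on the set of exons tested and on reads taken as independent. By design it compares 2 libraries and not animals. All included reads of Tmed2 came from models that are not complete annotated transcripts; complete ones gave 0 included reads with 72 and 37 skipping, so that inclusion there is 0% and was not tested. The gene itself had 642 and 683 reads (adjusted p = 0.718).

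For the other 69 alternative microexons the 95% intervals of both libraries overlapped, and the test was not passed. The median gap between the libraries over all 70 was 4.37 percentage points, and 37 gaps were under 5 points. Large gaps came with few reads. Mink1, a kinase of the Ste20 family, had the largest, from 8 of 28 to 20 of 33 reads (adjusted p = 0.471). Ptpra, a receptor phosphatase, went from 13 of 37 to 3 of 32 reads (adjusted p = 0.471). Tnnt1, slow troponin T, is a slow fibre marker with 307 and 2599 gene reads, and its 22-base exon was in 21 of 55 and 85 of 169 reads (adjusted p = 0.840). None of these 3 differences passed the test, and the size of difference it could detect at each of these depths is not given here. These 3 exons, like the further ones in the next paragraphs that have fewer reads than those above, were picked after their values were seen.

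Further alternative microexons had fewer reads. Dnm2, dynamin 2, a GTPase of membrane fission, held its 30-base exon in 49 of 91 and 56 of 100 reads. Mast2, a microtubule-associated kinase, held a 21-base exon in 74 of 112 and 89 of 169. Stim2, a calcium sensor of the endoplasmic reticulum, was at 59.0% and 58.1% for a 24-base exon, and Flna, the actin cross-linker filamin A, at 35.5% and 48.3%. In Myh11 a second, 21-base exon was in 8 of 21 and 11 of 24 reads, beside the nearly constitutive 28-base exon of that smooth muscle marker. Mtmr1, a myotubularin-related lipid phosphatase, held a 24-base and a 27-base exon together on 28 of 32 and 38 of 41 reads. In all, 35 of the 70 alternative microexons lay between 20% and 80%.

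The skipped microexons included ones with many skipping reads. Of the 56, 42 were held by 1 annotated transcript only, and no other tissue was compared. Bin1, amphiphysin 2, which shapes the T-tubules, held its 24-base exon in 0 of 880 and 0 of 779 reads (up to 0.181%). Myom1, myomesin, has 2 exons of 23 bases close together: the first was in 0 of 690 and 0 of 761 reads, and the next was constitutive, at 98.4% pooled. Atp1b2, a beta subunit of the sodium pump, held neither its 21-base nor its 27-base exon in 407 and 425 reads. Ryr1, the calcium release channel, held neither its 27-base nor its 30-base exon in 311 and 304 reads, of which 613 of 615 used annotated splice sites. Fastk had its exon in 1.19% and 1.26% of reads and Eif5a in 0.331% and 0.429%. Over the 52 skipped microexons that an annotated transcript also skips, 95.7% of skipping reads had annotated splice sites on both sides. Each site had to be annotated in the gene, but the 2 sites need not be joined in any annotated transcript. A high share goes with the choice of exons that the annotation skips.

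Skipping reads looked different at microexons that no annotated transcript skips. Over the 169 there were 2310 skipping reads, of which 16.5% joined annotated splice sites on both sides and 66.6% had a neighbouring exon that was longer by up to 2 times the microexon. Car14, a membrane carbonic anhydrase, gave 951 of these reads and 941 of the 1538 with a longer neighbour. Without its 2 exons, a count added after the data were seen, 27.7% of 1359 skipping reads joined annotated sites and 43.9% had a longer neighbour. Its 21-base exon at chr3:95898977-95898997 was in 2 of 277 and 1 of 278 reads, and 550 of the 552 skipping reads had a downstream exon that began 22 bases earlier. Its 21-base exon at chr3:95902111-95902131 was in 78 of 270 and 67 of 274 reads, and 354 of the 399 skipping reads had an upstream exon 26 bases longer. That exon and the 22-base exon after it were on the same reads together in 77 and 67 cases and both absent in 192 and 206. With annotated splice sites required on both sides of a skip, pooled inclusion of these 2 exons moved from 26.7% to 97.3% and 96.6%, so their place among the alternative microexons rests on reads with changed neighbours.

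Other genes showed the same form of skipping read. Gramd1a held its 21-base exon in 0 of 44 and 0 of 46 reads, and all 90 had an upstream exon 16 bases longer. Herc3, a ubiquitin ligase, held a 24-base exon in 23 of 42 and 23 of 44 reads, and the 40 others had a downstream exon 26 bases longer. Bsg, basigin, the partner of lactate transporters, held its 25-base exon in 94.2% of 1298 and 94.0% of 1058 reads, and 121 of 139 skipping reads had a downstream exon 28 bases longer. Trim63, the ubiquitin ligase MuRF1, held a 23-base exon in 94.6% of 460 and 94.6% of 279 reads, and 39 of 40 others had an upstream exon 18 bases longer. In Col6a1, a collagen VI chain, 2 neighbouring 21-base exons were absent from all 93 reads, which had 1 other arrangement of splice sites there. By contrast, the skipping reads of Ythdf3, a reader of methylated RNA, joined annotated sites in 16 of 16 cases, as did 34 of 35 in Fbxo40. Whether the longer neighbours are splice forms or bases of the microexon placed beside a neighbouring exon was not tested, so the inclusion of these exons depends on how such reads are counted.

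Exons of different lengths were then set side by side. Among microexons never skipped in the annotation, the 11 of 21 bases had a median inclusion of 83.1%, with 4 constitutive, 3 alternative and 4 skipped, the skipped ones being the first Car14 exon and those of Gramd1a and Col6a1 described above. From 22 to 30 bases none was skipped and no order by length was seen: all 5 of 22 bases, 8 of 26, 30 of 27 and 19 of 29 were constitutive, while 4 of 37 of 30 bases, 2 of 14 of 25 and 2 of 13 of 24 were alternative. Exons of 3 to 20 bases that no annotated transcript skips were skipped in 69.6% of 23 cases. Of their 396923 skipping reads, 97.5% had a longer neighbour. That share is weighted to genes with very many reads, and its split by gene was not examined. At 31 to 50 bases, 0 of 1144 were skipped and 0.612% were alternative. Of exons that the annotation does skip, 91.7% were under 5% inclusion at 3 to 20 bases, 38.5% at 21 to 30, 29.7% at 31 to 50, 23.1% at 51 to 100 and 19.9% above 100 and up to 200. These are counts of exons side by side, without a test.

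**Figure D5:**
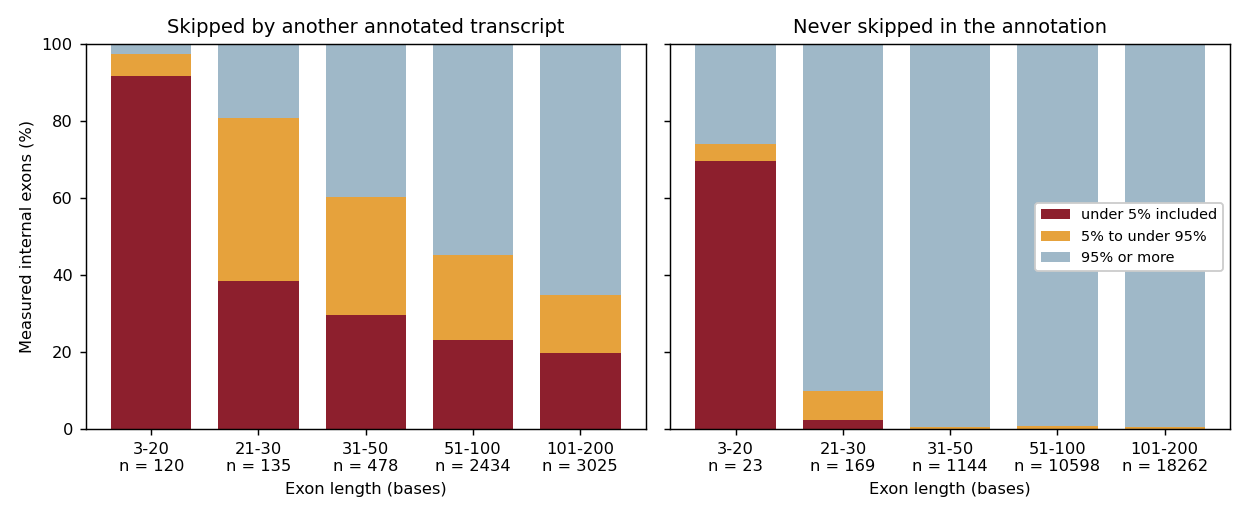
Share of measured internal exons (%) in 3 classes of pooled inclusion, by exon length, for exons that another annotated transcript skips (left) and exons never skipped in the annotation (right); n gives the exons in each bar. In the right panel the 3-20 and 21-30 base bars hold the visible shares under 95% inclusion.

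Microexons of related genes were set side by side. In 13 gene families chosen after their values were seen, 48 microexons of equal or near-equal length were compared, and in 6 families all measured copies were constitutive. In the tripartite motif family and its relatives Cmya5 and Fsd2, 8 genes had a measured 23-base exon, at 94.6% to 100% pooled inclusion, the lowest being Trim63. Of the 2 exons under the read minimum, Trim72 held it in 32 of 34 reads and Trim11 in 0 of 16 and 2 of 14. Over all 10 such exons, measured or not, 113 of 116 skipping reads had a longer neighbour. Trim54 and Trim63 share 15 of 23 bases and Trim27 and Trim11 share 17. Other pairs share far fewer, such as 5 for Trim63 and Trim27. Ythdf1 and Ythdf2 included a 25-base exon in 98.5% and 100% of pooled reads, and Ythdf3, whose exon has 22 of 25 bases in common with that of Ythdf2, in 82.2%. The importin genes Kpna3 and Kpna4 were at 98.9% and 99.3%. The other 7 families, each with a copy that was not constitutive, were Mef2, myomesin, the essential light chains, calcineurin, p38, YTH and tripartite motif.

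Proteins that act on short exons were read through their own messages. Of 25 listed splicing regulators, 21 had the 10 reads needed for a test, 3 were higher in replicate 2 and 0 were lower, where 7.82% of all 9341 genes were called (two-sided Fisher's exact test of gene reads with Benjamini-Hochberg adjustment). Qk, quaking, had 192 and 542 reads (adjusted p = 1.59e-36). The muscleblind gene Mbnl1 had 89 and 184 (adjusted p = 7.88e-07). Its relative Mbnl2 had 269 and 437 (adjusted p = 3.27e-08), a call that the edgeR exact test did not make (adjusted p = 0.121). Rbfox1, a muscle and neuron regulator, had 60 and 36 reads (adjusted p = 0.126). Ptbp1, which represses neuronal and muscle exons, had 7 and 5. Srrm4 had 0 and 1 read and Srrm3 0 and 1. Any part of these differences in the inclusion of microexons was not tested.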

How the data were processed

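Gastrocnemius RNA was sequenced with long reads in 2 libraries, 1 per animal by the labels' animal numbers. The transcript tables deposited by the authors hold unnormalized counts of long reads per transcript model. Per the file headers and notes deposited with them, models are TALON models on build mm10 with GENCODE M21; the sources used here give neither the aligner nor the read filters. All 141862 annotated transcripts of the deposited annotation had the exons of GENCODE M21, from which the sequences were taken.

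Counts of models were summed per exon as included (exact exon) or skipping (spanning without overlap); reads overlapping with other ends (2.17%) were left out. Shares carry 95% Wilson intervals. Internal exons of any length that reached 20 informative reads in each library and lay at 5% to 95% were tested for a library difference (Fisher's exact test, scipy 1.17.1, threshold 0.05), and genes with at least 10 reads likewise. With 1 group of 2 libraries a quasi-likelihood fit has no residual degrees of freedom; edgeR 4.0.16 with an assumed dispersion of 0.01 was an alternative. The script was tested on simulated reads drawn independently, without added variation between libraries. That run cannot show how the test behaves where such variation exists.

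The members, lists and families were chosen with earlier results of these data known. Named were the 14 alternative, 8 constitutive and 8 skipped microexons with the most reads, those that differed, the 3 on each side of the gene minimum and all measured ones of Mef2a, Mef2c, Mef2d, Trdn, Tnnt3, Ryr1, Cacna1s, Neb, Ttn and Agrn; others were picked after their values were seen. Tnnt3, Cacna1s, Neb, Ttn and Agrn had no measured member. Alternatives varied the models counted, the read minimum, exon end tolerance, the family of tests and the library.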

Additional observations from a re-analysis of the deposited data

How the results depend on the processing

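Counting annotated transcripts alone left 192 measured microexons, 15 alternative ones, a median inclusion of 100% and 0 that differed between the libraries. Tmed2 was not tested in that setting. With models of at least 2 reads there were 44 alternative microexons and a median of 99.6%. A minimum of 50 informative reads left 172 measured, 34 alternative and 31 skipped, with a median of 98.3%, and a minimum of 10 gave a median of 97.6%. With annotated splice sites required on both sides of a skip, 57 microexons were alternative and the median was 99.9%. An inclusion window of 10% to 90% left 48 alternative ones. Over the fits that leave out 1 library the median ranged from 97.4% to 97.9%. The number that differed was 0 with an inclusion window of 10% to 90%. Tmed2, at 91.5% pooled inclusion, lay outside that window and was not tested. The number was also 0 with all measured exons adjusted together and with an assumed correlation of 0.01, where Tmed2 was tested. A gene minimum of 100 reads left 280 microexons. The edgeR exact test called 173 genes against 730. Apart from Tmed2 falling outside the test, the cause of these shifts was not tested. No paired analysis was possible because there is 1 group.

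Of the exons compared by name, pooled inclusion moved by more than the spread between libraries in 20 of 27 with annotated transcripts alone. The exons of Trdn, Ryr1 and Tnni2 and the 2 alternative ones of Car14 had no informative reads from such transcripts and were not compared there. The number was 21 of 42 with models of at least 2 reads and 14 of 42 with annotated splice sites on both sides. Many of these moves were small, at exons near 0% or 100% where the libraries differed little. With models of at least 2 reads, Myh4 moved from 99.5% to 99.6%, while Mef2d moved from 87.3% to 92.8%. It was 1 of 42 with ends up to 3 bases away and 0 of 42 without genomic models. Without replicate 2 it was 11 of 42, namely the Trdn exons and Myh7, and without replicate 1 it was 0 of 42. These last 2 counts follow from depth and do not measure how stable inclusion is. Pooled inclusion is weighted by reads, so it moves past that spread only where the library left out holds most of the reads. The widest moves were to 0% for Tmed2, Rilpl1 and the first Dctn1 exon with annotated transcripts alone, and to 97.3% and 96.6% for the 2 alternative Car14 exons with annotated splice sites. Depth limits the rest: with a minimum of 20 reads in a library, wide gaps came with few reads and did not pass the test. Of the 638 microexons, 334 were not measured.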

Other observations

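The reads also held internal exons of 21 to 30 bases that no annotated transcript has at those ends. There were 297 with a read, 74 in both libraries and 12 with at least 5 reads in each, of which 8 had a length divisible by 3. Among those 12, 4 overlapped no annotated exon. Ccpg1, a regulator of endoplasmic reticulum turnover, held a 27-base exon at chr9:73007393-73007419 in 63.2% of spanning reads in replicate 1 and 57.6% in replicate 2. Fermt2, kindlin 2, an integrin activator, held a 21-base exon at chr14:45462715-45462735 in 61.9% and 64.7% of reads and a 24-base exon at chr14:45463246-45463269 in 18.3% and 20.7%. Ppp3cb, calcineurin A beta, held a 27-base exon at chr14:20511474-20511500 in 66.7% and 68.8%, in addition to the constitutive 30-base exon described above.

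A pair of further unannotated microexons overlaps annotated exons at other ends. Gpcpd1, a glycerophosphodiesterase, held a 21-base exon in 115 of 135 and 145 of 183 reads, and Uso1, a Golgi tethering factor, a 21-base exon in 91.3% and 90.2%. These exons were picked after their values were seen.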
